A study of Mus musculus with 6 samples.

Results

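Genes of phase II conjugation were examined in liver RNA of mice with a Sec15 knockout (KO) and of wild-type (WT) mice. The genes were taken as those whose array probe maps, through its transcript accession, to a mouse RefSeq symbol of the glutathione S-transferases (Gst of the alpha, kappa, mu, omega, pi, theta and zeta classes), the microsomal glutathione S-transferases (Mgst), the UDP-glycosyltransferases (Ugt1, Ugt2, Ugt3 and Ugt8) or the cytosolic sulfotransferases (Sult). The array held 59 such genes on 81 probes, of 32451 genes or transcripts in all. They comprise 21 Gst, 3 Mgst, 15 Ugt and 20 Sult genes. A further 11 RefSeq genes with such a symbol had no matching probe, among them Gsta1, Ugt1a1 and Ugt1a9. Of the 59 genes, 46 could be tested, since they had a complete value on every array and a signal that stood well above background on no fewer than 3 arrays: 20 Gst, 3 Mgst, 14 Ugt and 9 Sult. In fact 44 of these 46 were well above background on all 6 arrays and the other 2 on 5, so none entered the test through 1 group alone.

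Conjugation joins a polar group to a drug, hormone or waste product so that it can leave the cell and the body. Glutathione S-transferases attach the tripeptide glutathione to electrophiles, UDP-glucuronosyltransferases attach glucuronic acid from UDP-glucuronic acid, and sulfotransferases attach sulfate from the donor PAPS. Hepatocytes carry out much of this work, and in mice several of the enzymes differ in level between males and females or respond to nuclear receptors and to the antioxidant regulator Nrf2. Many members lie in tandem clusters of close copies, and the Ugt1a genes share their last exons, so that a probe may read more than 1 copy.

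The 3 KO samples and the 3 WT samples were livers of untreated male mice aged 6 weeks. Sec15 belongs to the exocyst, a complex that holds secretory vesicles at the cell surface before they fuse, and the title of the series concerns STAT3 and blood stem cells. The labels do not say which of the 2 mouse Sec15 genes was deleted, in which cells or with what driver, nor whether each sample is a separate animal. Of the probes for them, the single Exoc6 probe was well above background on 0 KO arrays and 1 WT array, which gives no fold. Exoc6b probe A_55_P1997415 read between -0.06 and 0.14 on the KO arrays and between 0.31 and 0.78 on the WT arrays, and a probe outside a deleted part checks nothing. All levels are processed signals on the log2 scale, after the 75th percentile of the array in question was subtracted. All 11 hepatocyte markers were well above background on every array.

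The arrays are not alike in standing. By their headers, KO replicate 2 had the same scan time as the 3 WT arrays, and KO replicates 1 and 3 had another. The arrays of each scan time sat at different array positions, so they are taken here to share a slide (slide 1 and slide 2), though no slide identifier was read. KO replicate 3 lay between KO replicates 1 and 2 in 58.4% of all genes tested and in 34 of the 46 conjugation genes (73.9%). WT replicate 3 lay between WT replicates 1 and 2 in 66.1% of all genes and in 34 of the 46 conjugation genes. If the 3 arrays of a group were interchangeable, each would hold the middle value in 33.3% of genes. Among 1277 genes in which WT replicates 1 and 2 differed by over 1 on the log2 scale, WT replicate 3 lay between them in 87.2%. Choosing genes whose other 2 arrays lie far apart raises this share for any array, so 33.3% is not its reference. The same choice gave 47% for WT replicate 1 and 57% for WT replicate 2. It gave 52.9%, 39.1% and 70.9% for KO replicates 1, 2 and 3. The labels give no shared or pooled RNA, and whether these arrays are independent was not tested, so the p-values measure only the spread between these 6 samples. Values with the slide as a block rest on KO replicate 2 as the lone KO array of slide 1.

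Sulfotransferases stood highest among the families in KO liver, while few glutathione S-transferases or glucuronosyltransferases passed the test. Of the 46 genes, 8 were higher in KO at a limma adjusted p under 0.05 (17.4%), against 17.4% of all 22810 genes tested. In the other direction 1 was lower (2.17%), against 12.2% of all genes. The share of higher members therefore equals the background. The 3 KO values lay above the 3 WT values in 12 members (against 30.6% of all genes) and below them in 4 (against 20.2% of all genes). Among Sult genes 5 of 9 were higher and 0 lower (6 had an unadjusted p under 0.05), among Gst genes 2 of 20 were higher and 1 lower, among Ugt genes 1 of 14 was higher and 0 lower (1 had an unadjusted p under 0.05), and no Mgst gene passed. The Gst shares (10.0% higher and 5.0% lower) and the Ugt share (7.14% higher) lie below those of all genes. An unadjusted limma p under 0.05 was held by 10389 of all 22810 genes tested. The median log2 fold change, KO minus WT, was 0.89 for Sult, 0.07 for Gst, 0.18 for Mgst and 0.05 for Ugt, beside 0.06 for all genes. The families were compared by these counts and medians alone, without a test between them. After cyclic loess normalisation the Gst median was -0.13 and the Ugt median -0.20, so neither family has a settled direction. The Sult median stayed positive but was 0.71 after cyclic loess, 0.42 over all Sult genes with no filter on dim probes and 0.27 in the slide-blocked fit. Without WT replicate 3 the counts were 2 higher and 0 lower (3 lower at an unadjusted p under 0.05), and without KO replicate 3 they were 2 and 1. Without KO replicate 2 they were 12 and 3. Leaving out KO replicate 1 gave 4 and 2, and leaving out WT replicate 2 gave 3 and 1. With the slide as a block they were 4 higher (Sult1a1, Sult1d1, Gstk1 and Gsto2) and 1 lower (Gstm7).

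**Figure D1:**
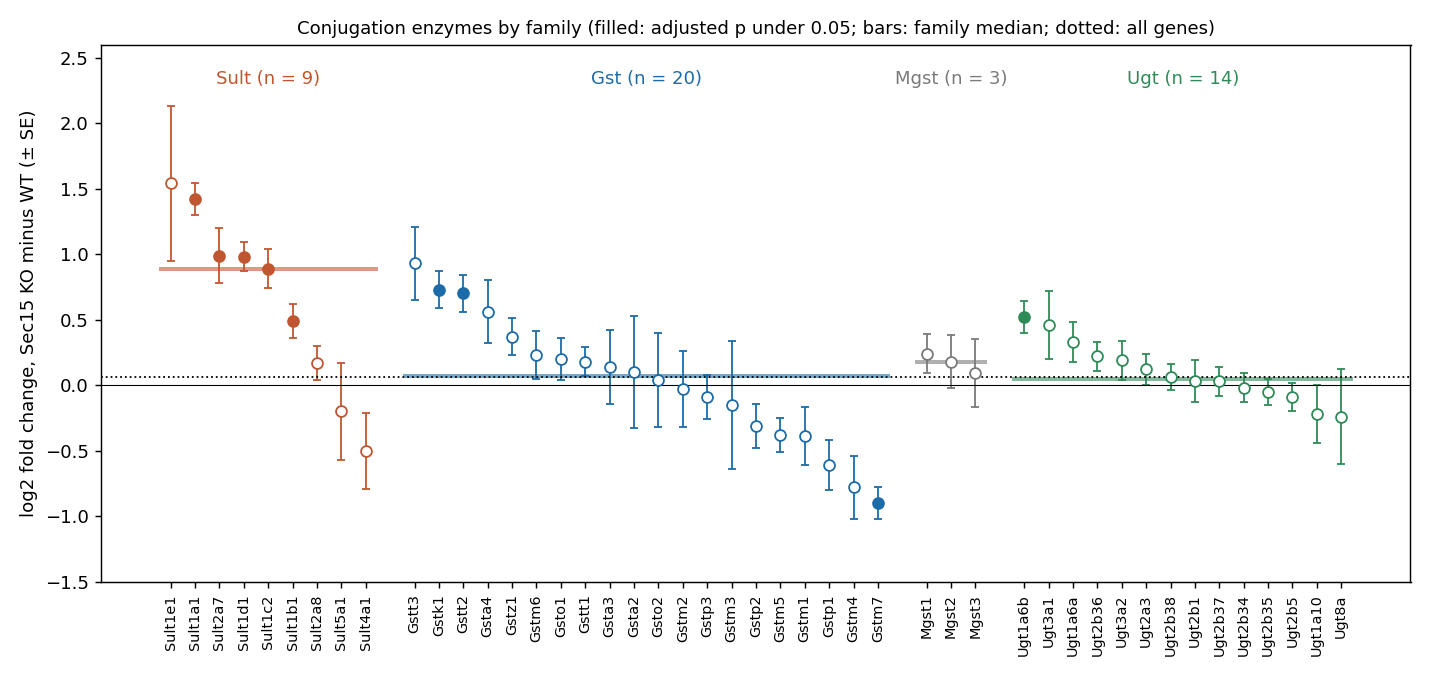
The log2 fold change (KO minus WT) of each of the 46 tested members is plotted with its SE, grouped by family. Filled points passed the adjusted threshold, coloured bars mark family medians and the dotted line the median of all genes (0.06); 5 of the 9 Sult points are filled and lie between 0.49 and 1.42.

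Sult1a1, the main phenol sulfotransferase of liver, had the smallest p among the members. Its signal was 5.58, 5.36 and 5.50 in KO replicates 1, 2 and 3, against 4.22, 3.95 and 4.02 in WT replicates 1, 2 and 3. The groups are far apart and each varies little. Sult1a1 was 2.67-fold higher in KO (log2 fold change 1.42, SE 0.12, limma adjusted p = 0.00537), and its second probe gave 1.39. Sult1d1, which in mouse sulfates monoamines such as dopamine, had 3.98, 3.85 and 4.00 in KO and 2.85, 3.09 and 2.94 in WT. It was 1.97-fold higher in KO (SE 0.11 on the log2 scale, adjusted p = 0.00654), and its second probe gave 1.35. For both genes all KO arrays, including the one on the WT slide, lay above all WT arrays. In the slide-blocked fit Sult1a1 stood at 1.29 (adjusted p = 0.0243) and Sult1d1 at 0.89 (adjusted p = 0.0304). The call of each was kept in 19 of 20 other settings and lost on the arrays of slide 1 alone.

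Sult1c2, of the 1C class, had -0.49, -0.29 and -0.03 in KO and -1.33, -1.09 and -1.06 in WT. It was 1.85-fold higher in KO (log2 fold change 0.89, SE 0.15, adjusted p = 0.0140), a call kept in 16 of 20 other settings. KO replicate 2 stood 0.86 above the WT mean, close to the 0.90 of KO replicates 1 and 3, though Sult1c2 no longer passed once slide entered as a block (adjusted p = 0.0696). Sult1b1, which sulfates phenols and thyroid hormones, had 1.41, 1.00 and 1.31 in KO and 0.76, 0.71 and 0.78 in WT, a 1.41-fold difference (adjusted p = 0.0382). Its KO values were split by slide, with KO replicate 2 only 0.25 above the WT mean. That call was kept in 8 of 20 other settings.

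Sult2a7, of the hydroxysteroid class that sulfates steroids and bile acids, had -0.68, -1.47 and -0.93 in KO and -1.96, -2.10 and -1.98 in WT. It was 1.98-fold higher in KO (log2 fold change 0.99, SE 0.21, adjusted p = 0.0223). KO replicate 2 was the lowest KO array, 0.54 above the WT mean, and its adjusted p in the slide-blocked fit was 0.0727. It also missed the threshold with WT replicates 1 and 2 averaged (0.98, adjusted p = 0.0519), and its call was kept in 13 of 20 other settings. Sult1e1, the oestrogen sulfotransferase, showed the same split more widely. It had -0.28, -2.50 and -0.91 in KO and -3.25, -2.80 and -2.27 in WT. KO replicates 1 and 3, both on slide 2, lay above all WT arrays, and KO replicate 2 lay within the WT range. Its fold change of 1.54 (SE 0.59) was numerically above that of every other member and did not pass (adjusted p = 0.0949, or 0.694 in the slide-blocked fit).

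The other 3 tested sulfotransferases did not pass. Sult2a8, which sulfates bile acids in mouse liver, differed by 0.17 (95% interval -0.15 to 0.49). Sult5a1 differed by -0.20 (95% interval -1.11 to 0.71), with WT values from 0.11 to 1.39. Sult4a1, a form best known from brain, differed by -0.50 (SE 0.29), with KO values of -3.05, -2.05 and -3.06 and WT values of -2.20, -2.13 and -2.33.

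**Figure D2:**
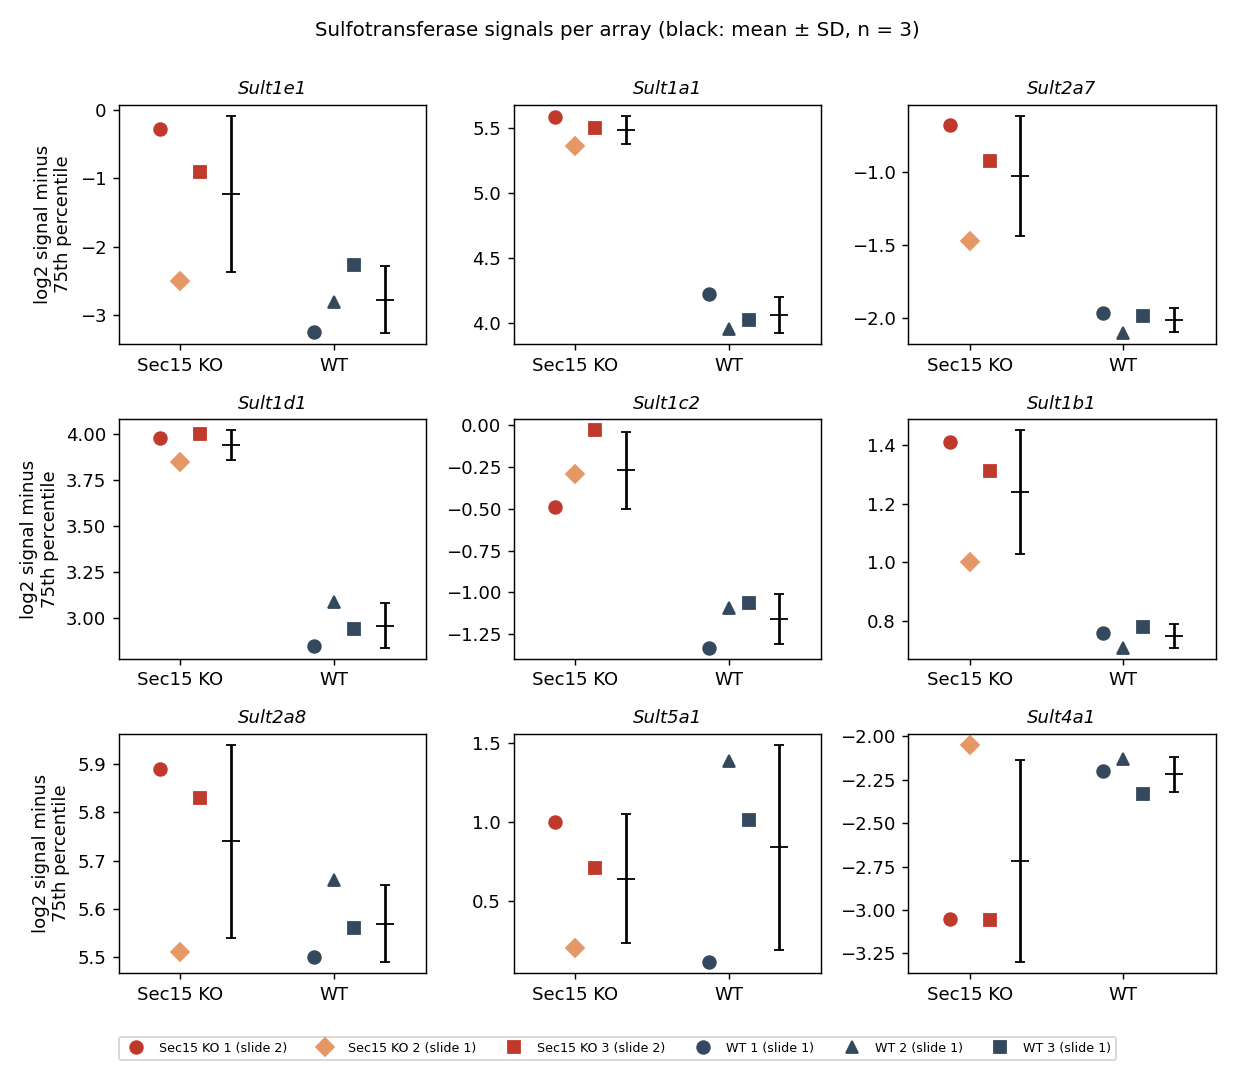
Each panel shows the log2 signal minus the array's 75th percentile of 1 sulfotransferase gene for the 3 KO arrays (left) and the 3 WT arrays (right), with the mean ± SD in black; the vertical scale differs between panels. KO replicate 2 (diamond, slide 1) falls with the other KO arrays for Sult1a1, Sult1d1 and Sult1c2 and near the WT arrays for Sult1e1 and Sult2a8.

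A further 11 sulfotransferase genes were too dim for the test. Sult2a2 was well above background on 2 KO arrays and on no WT array, with -3.26, -5.02 and -3.64 in KO and -5.58, -4.77 and -5.76 in WT. Sult6b1 was well above background on 2 KO arrays and on no WT array, with -3.33, -5.65 and -2.56 in KO and -6.03, -5.98 and -4.22 in WT. Sult2a4 was well above background on 1 KO array (replicate 3, at -1.34). In all of these the readings that rose above background came from slide 2. One of the 3 Sult2a6 probes, A_55_P2107223, was the converse, well above background on 1 WT array (replicate 2, at -3.12) and on no KO array. Sult1c1, Sult2a1, Sult2a3, Sult2b1, Sult3a1, Sult3a2 and Sult6b2 were not well above background on any array, so they give no fold. Sult3a1 and most Sult2a genes are known as female-predominant in mouse liver, and these samples are male.

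Promoters of called members are shown for the genes with the largest changes that have an entry in RefSeq (build GRCm38.p6), from 250 bases before to 50 after the annotated start. Gstm7 has 2 annotated starts, and its second is shown because it holds a match; the first holds a TATA match at -231 and no match to the other motifs named here. Capitals mark matches, on either strand, to the antioxidant response element TGACNNNGC, the STAT site TTCNNNGAA or the TATA box TATAAA.
Sult1a1, chr7:126676369-126676668, minus strand: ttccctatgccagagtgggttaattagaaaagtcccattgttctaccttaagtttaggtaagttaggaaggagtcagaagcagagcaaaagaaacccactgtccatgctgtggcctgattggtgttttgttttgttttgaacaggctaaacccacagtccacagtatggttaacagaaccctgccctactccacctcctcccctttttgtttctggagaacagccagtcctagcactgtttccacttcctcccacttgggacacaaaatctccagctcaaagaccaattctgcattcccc
Sult1d1, chr5:87568957-87569256, minus strand: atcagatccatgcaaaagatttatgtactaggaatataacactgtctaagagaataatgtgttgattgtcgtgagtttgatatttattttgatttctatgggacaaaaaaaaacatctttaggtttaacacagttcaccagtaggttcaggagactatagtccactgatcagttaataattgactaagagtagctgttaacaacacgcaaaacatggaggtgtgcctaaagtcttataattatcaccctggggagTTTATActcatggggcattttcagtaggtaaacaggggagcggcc
Sult1c2, chr17:53845909-53846208, minus strand: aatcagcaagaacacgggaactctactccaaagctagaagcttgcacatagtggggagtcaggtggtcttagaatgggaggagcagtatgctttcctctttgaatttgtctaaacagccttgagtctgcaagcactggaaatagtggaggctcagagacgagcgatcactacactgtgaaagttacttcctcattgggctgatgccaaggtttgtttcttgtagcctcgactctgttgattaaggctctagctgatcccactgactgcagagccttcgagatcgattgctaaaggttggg
Gstk1, chr6:42245685-42245984, plus strand: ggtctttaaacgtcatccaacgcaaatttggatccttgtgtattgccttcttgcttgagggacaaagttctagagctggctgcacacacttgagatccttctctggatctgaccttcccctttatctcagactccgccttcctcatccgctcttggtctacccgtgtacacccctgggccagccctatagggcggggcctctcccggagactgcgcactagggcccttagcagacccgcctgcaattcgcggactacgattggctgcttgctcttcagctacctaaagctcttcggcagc
Gstm7, chr3:107931565-107931864, minus strand: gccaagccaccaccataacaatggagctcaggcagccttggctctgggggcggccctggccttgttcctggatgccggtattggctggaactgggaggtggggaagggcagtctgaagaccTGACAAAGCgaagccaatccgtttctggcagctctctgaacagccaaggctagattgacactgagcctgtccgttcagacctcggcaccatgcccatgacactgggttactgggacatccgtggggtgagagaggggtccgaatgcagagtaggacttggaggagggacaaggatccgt
Among these 5 stretches, Gstm7 holds 1 antioxidant response element match, TGACAAAGC, whose first base is at -129 from the start, and Sult1d1 holds 1 TATA match on the opposite strand at 6. Sult1a1, Sult1c2 and Gstk1 hold none of the 3. Of the 46 tested members 40 had a promoter entry. The antioxidant response element letters were in 4 of the 40 (10.0%; Gsta3, Gstm5, Gstm7 and Mgst1), against 12.4% of all 32851 promoters. The STAT site letters were in 4 of the 40 (Gstm6, Mgst1, Mgst2 and Ugt1a6a), against 8.3% of all promoters. The letters GCGTG, the core of the xenobiotic response element bound by the Ah receptor, were in 9 of the 40 (22.5%), against 32.4% of all promoters. The E-box CACGTG was in 0 of the 40, against 7.15%, and TATAAA in 8 (20.0%), against 13.6%. Both strands were searched, matches of different motifs may overlap, members with 2 entries count once if either matches, and a match is only a match of letters. The shares of all promoters count entries, not genes. Over the 51 promoter entries of members, the like shares were 7.84% for the antioxidant response element and 7.84% for the STAT site. They were 19.6% for GCGTG, 0% for the E-box and 17.6% for TATAAA.

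Of the glutathione S-transferases of the kappa, theta and zeta classes, Gstk1 and Gstt2 were higher in KO liver. Gstk1, of mitochondria and peroxisomes, had 5.38, 5.81 and 5.58 in KO and 4.76, 4.93 and 4.90 in WT. It was 1.66-fold higher in KO (log2 fold change 0.73, SE 0.14, adjusted p = 0.0166) and also passed in the slide-blocked fit (0.95, adjusted p = 0.0300). The call of Gstk1 was kept in 14 of 20 other settings. Cyclic loess and quantile normalisation were among those in which it ended, with its direction unchanged. Gstt2 had 1.67, 1.25 and 1.62 in KO and 0.90, 0.73 and 0.80 in WT, a 1.62-fold difference (SE 0.14 on the log2 scale, adjusted p = 0.0196). The Gstt2 call was also kept in 14 of 20 other settings. KO replicate 2 was the lowest of its KO arrays, and its slide-blocked adjusted p was 0.0740. Gstt3, its neighbour in the theta cluster, had 4.14, 3.12 and 3.79 in KO and 2.53, 2.95 and 2.77 in WT. The groups do not overlap and the fold change was 0.93 (SE 0.28), just outside the threshold (adjusted p = 0.0502). Gstt1 differed by 0.18 (95% interval -0.09 to 0.44). Gstz1, which isomerises maleylacetoacetate in tyrosine breakdown, differed by 0.37 (SE 0.14, adjusted p = 0.100), also without overlap. Gstt4 was not well above background on any array.

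The mu class, a cluster of 7 neighbouring genes that were all tested, had a median of -0.38. KO replicate 2 was the lowest KO array in all 7, and without it the median was -0.18 and Gstm2, Gstm3 and Gstm6 were positive; with the slide as a block it was -0.82. Gstm7 was the only member of any family to pass in this direction. It had -2.50, -2.79 and -2.75 in KO and -1.88, -1.69 and -1.76 in WT, and fell by 0.90 in log2 terms, or 1.87-fold (SE 0.12, adjusted p = 0.00829). The groups are clearly apart. Its second probe fell by 0.61 (adjusted p = 0.0257), and in the slide-blocked fit the gene stood at -1.01 (adjusted p = 0.0304). The call of Gstm7 was kept in 18 of 20 other settings and lost without WT replicate 3 and on the arrays of slide 1 alone. After normexp background correction followed by quantile normalisation its change was smaller (-0.39, SE 0.08), and the call was kept. Gstm4 had -0.45, -1.23 and -1.03 in KO and 0.09, -0.39 and -0.08 in WT, without overlap (log2 fold change -0.78, SE 0.24, adjusted p = 0.0537), but its second probe read 0.15. Gstm5 differed by -0.38 (SE 0.13, adjusted p = 0.0668), again without overlap.

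Probes of 1 mu class gene differed from each other. The brighter Gstm1 probe differed by -0.39 (adjusted p = 0.213 in the fit of every probe, as for the other probe values here), whereas the second, A_55_P1966432, had 2.59, 2.14 and 2.39 in KO and 3.61, 3.28 and 3.43 in WT and fell by 1.06 (SE 0.15, adjusted p = 0.0104). The brighter Gstm3 probe differed by -0.15 (SE 0.49), whereas the second, A_55_P2065231, had 1.63, 1.13 and 1.46 in KO and 2.59, 2.24 and 2.47 in WT and fell by 1.03 (SE 0.17, adjusted p = 0.0124). For both genes the second probe separates the groups and the brighter one does not. Since the files give no probe sequence, which copies or isoforms each probe reads was not tested. The 3 Gstm2 probes read -0.03, -0.05 and -0.44, and the 3 Gstm6 probes 0.23, 0.04 and -0.15, none of them past the threshold. With each probe as a feature of its own, 10 of 65 tested member probes were higher and 4 lower, against 17% and 11.6% of all 27024 probes.

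**Figure D3:**
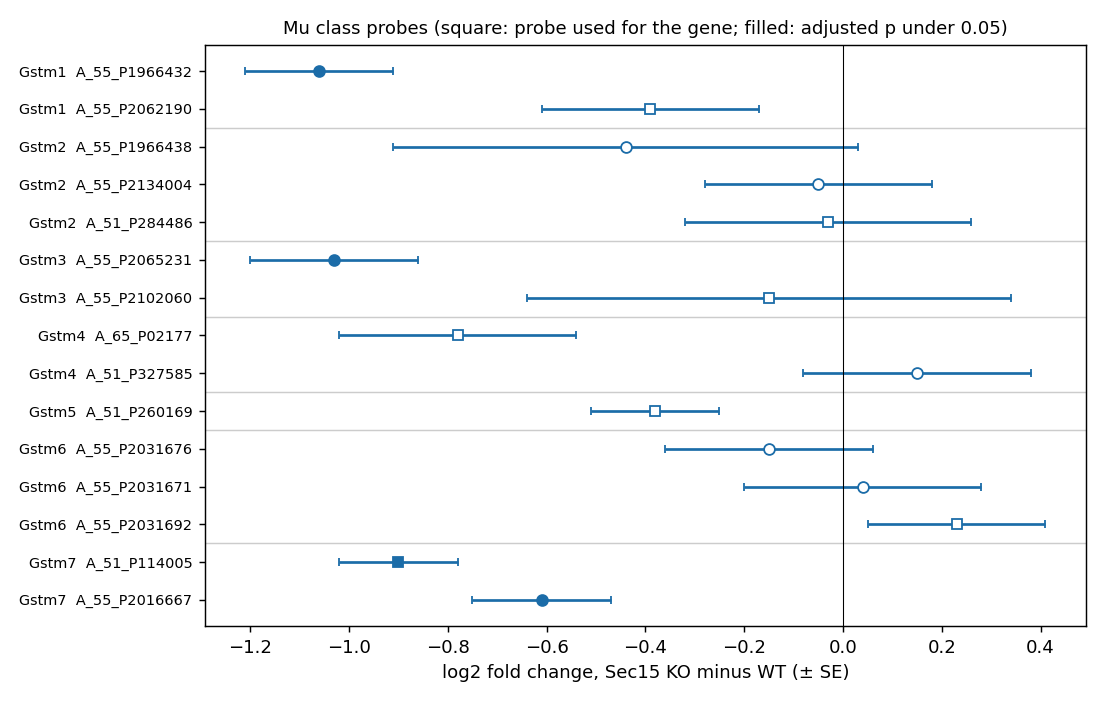
The log2 fold change (KO minus WT, with SE) is shown for each of the 15 tested mu class probes, with squares for the probe used for the gene and filled symbols for an adjusted p under 0.05. Both Gstm7 probes and the second probes of Gstm1 and Gstm3 are filled, between -0.61 and -1.06.

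Among the alpha class, which metabolises lipid peroxides and many drugs, none of the 3 tested genes passed. Gsta2 had 4.00, 2.43 and 3.59 in KO and 3.61, 2.83 and 3.25 in WT, so its KO arrays lay on both sides of the WT arrays (log2 fold change 0.10, 95% interval -0.96 to 1.17). Gsta3 differed by 0.14 (SE 0.28) and Gsta4 by 0.56 (SE 0.24, adjusted p = 0.123). In the pi class, abundant in male mouse liver, Gstp1 had 6.25, 6.94 and 6.68 in KO and 7.31, 7.15 and 7.25 in WT. These groups do not overlap (log2 fold change -0.61, SE 0.19, adjusted p = 0.0541). Gstp1 passed in 7 of 20 other settings, cyclic loess among them. Gstp2 differed by -0.31 (SE 0.17) and Gstp3 by -0.09 (SE 0.17). In the limma fit of every probe, the second Gstp1 probe differed by -0.49, with overlap (adjusted p = 0.121). The second Gstp2 probe differed by -0.62, without overlap (adjusted p = 0.0973). Gstp1 and Gstp2 are near-identical copies whose probes may share signal. Gsto1, an omega class enzyme that reduces dehydroascorbate, differed by 0.20 (SE 0.16). Gsto2 had -3.39, -2.18 and -3.51 in KO and -2.91, -3.23 and -3.06 in WT. KO replicate 2 alone lay above WT there, and Gsto2 passed in the slide-blocked fit (0.89, adjusted p = 0.0390) while its difference over all arrays was 0.04. Of the membrane-bound enzymes, Mgst1 differed by 0.24 (SE 0.15), Mgst2 by 0.18 (SE 0.20) and Mgst3 by 0.09 (SE 0.26). The second Mgst3 probe differed by 0.73 (adjusted p = 0.0789).

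**Figure D4:**
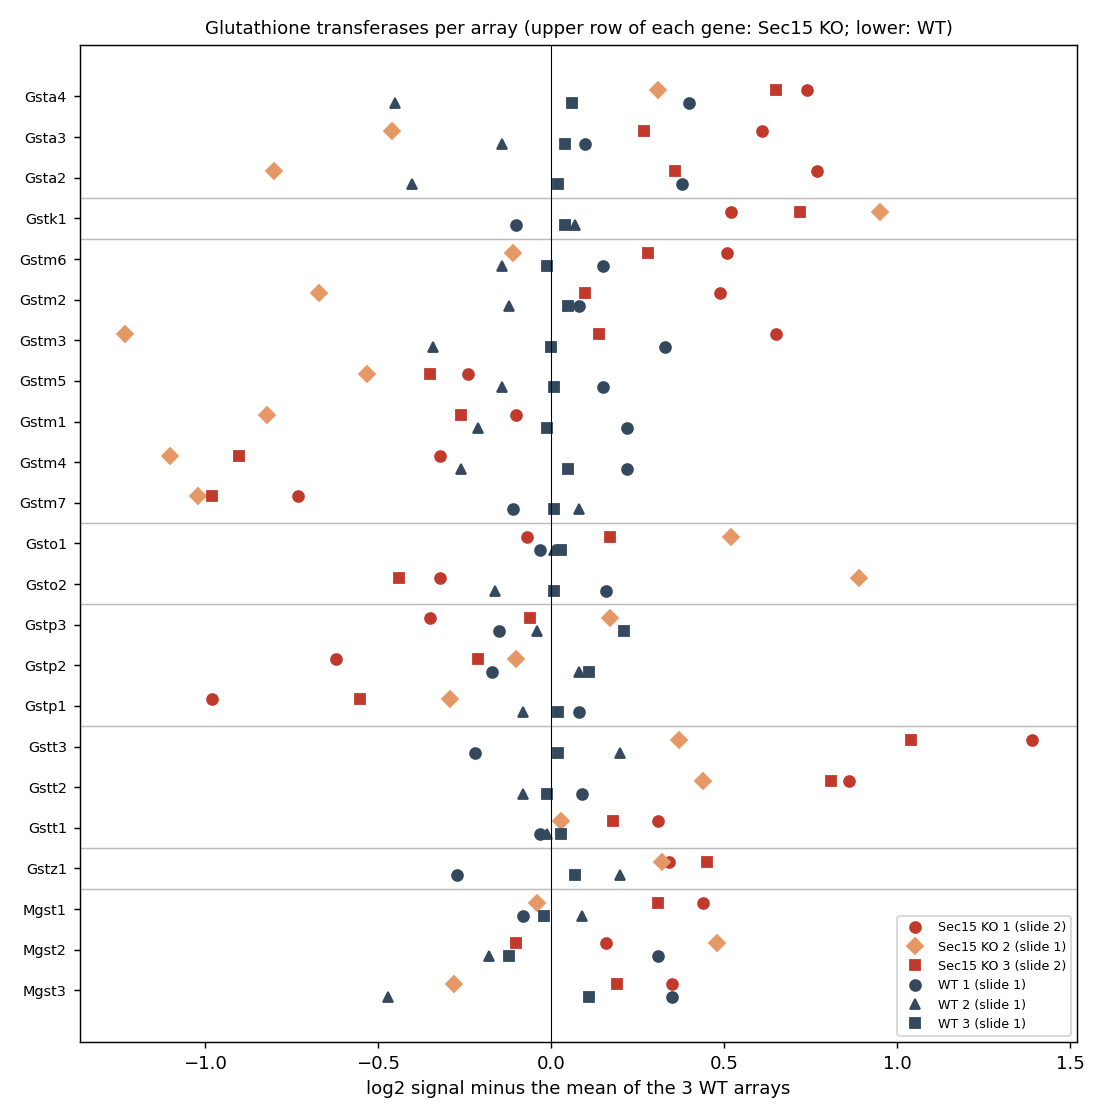
For each tested Gst and Mgst gene, the log2 signal of every array is drawn as its difference from the mean of the 3 WT arrays, with KO arrays on the upper row and WT arrays on the lower. The KO points of Gstk1, Gstt2 and Gstt3 all lie to the right of the WT points and those of Gstm7, Gstm4, Gstm5 and Gstp1 to the left, while KO replicate 2 (diamond) stands apart from KO replicates 1 and 3 for Gsta2, Gsta3, Gstm2, Gstm3 and Gsto2.

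Of the glucuronosyltransferases 1 passed the test. Ugt1a6b, a form that acts on small phenols, had 7.98, 7.74 and 8.02 in KO and 7.33, 7.50 and 7.35 in WT. It was 1.44-fold higher in KO (log2 fold change 0.52, SE 0.12, adjusted p = 0.0246), without overlap. The second Ugt1a6b probe read 0.03 (SE 0.35), and the call held in 10 of 20 other settings, not with the slide as a block. Because Ugt1a genes share exons, the bright probe may stand for other Ugt1a transcripts as well. Ugt1a6a differed by 0.33 (SE 0.15, adjusted p = 0.130) without overlap, and Ugt1a10 by -0.22 on its brighter probe and 0.37 on its second.

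The 7 tested Ugt2b genes, which conjugate steroids, bile acids and drugs, lay between -0.09 (Ugt2b5) and 0.22 (Ugt2b36), and none passed (limma; none had an unadjusted p under 0.05). Their SEs ran from 0.10 to 0.16. Over the 7 genes the 95% intervals reached from -0.35 to 0.48, so under this scaling folds above 1.39 or below 0.785 lie outside every interval. Ugt2b34, for example, had 6.27, 5.99 and 6.18 in KO and 6.15, 6.17 and 6.18 in WT. The KO values of this gene lie on both sides of a very narrow WT range. Ugt2b38 differed by 0.06, Ugt2b1 by 0.03, Ugt2b37 by 0.03 and Ugt2b35 by -0.05 on its brighter probe and 0.19 on its second. The median absolute log2 fold change of the 7 genes was 0.05, beside 0.37 for all genes. After normexp background correction followed by quantile normalisation Ugt2b38 stood at -0.26 and passed (adjusted p = 0.0342), and all 7 Ugt2b values were negative. All 7 were also negative after quantile normalisation (-0.36 to -0.10) and after cyclic loess (-0.38 to -0.06, median absolute value 0.25), and all 7 positive with median centring (0.03 to 0.34). The class thus has no settled direction, and its closeness to WT depends on the scaling. Ugt2a3 differed by 0.12 (SE 0.12). Ugt2a1 could not be tested, since its spot was an outlier on 2 arrays, and the remaining arrays read 1.29 and 0.74 in KO replicates 1 and 2 and 1.79 and 1.34 in WT replicates 1 and 2. Ugt3a1 differed by 0.46 (SE 0.26) and Ugt3a2 by 0.19 (SE 0.15). Ugt8a, the enzyme of galactosylceramide synthesis, differed by -0.24 (SE 0.36).

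In RefSeq gene order the Ugt2 genes and Sult1b1, Sult1d1 and Sult1e1 form 1 run on chromosome 5. Of its 11 tested members Sult1b1 and Sult1d1 were higher in KO and none was lower, and the 8 tested Ugt2 genes of the run did not pass. Over all genes tested, 17.4% were higher and 12.2% lower, so the share of higher genes in this run is near that of all genes. Chromosome 3 holds the 7 Gstm genes, with 1 lower and none higher. Chromosome 10 holds the theta cluster, where the 3 tested genes all had a positive fold change and 1 passed. A positive fold change was found in 12449 of all 22810 genes.

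The KO arrays differed among themselves more than the WT arrays did in 33 of the 46 members (71.7%), against 59% of all genes. The median SD was 0.25 in KO and 0.13 in WT, beside 0.18 and 0.15 over all genes. KO replicate 2 was the lowest KO array in 33 members (71.7%), against 45.3% of all genes tested. It was the highest in 10 (21.7%), against 42.5%. Low values on this array were not particular to the members. KO replicate 2 was also the lowest KO array in 9 of 11 hepatocyte markers and 8 of 9 Kupffer cell markers. The same held in 13 of 14 genes of sulfate and PAPS supply, but in only 4 of 9 erythroid markers. Among hepatocyte markers the KO SD was the larger in 9 of 11. The 2 slides thus gave different medians. KO replicate 2 lay -0.01 from the WT mean at the median member, and KO replicates 1 and 3 lay 0.27 from it, while both values were 0.08 over all genes. For Sult the pair was 0.27 and 0.90, for Gst -0.11 and 0.27, and for Ugt -0.05 and 0.14. In 18 members KO replicate 2 and the mean of KO replicates 1 and 3 lay on opposite sides of the WT mean. Gstm3 was one of these, at -1.23 and 0.40. Slide and animal cannot be told apart here.

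**Figure D5:**
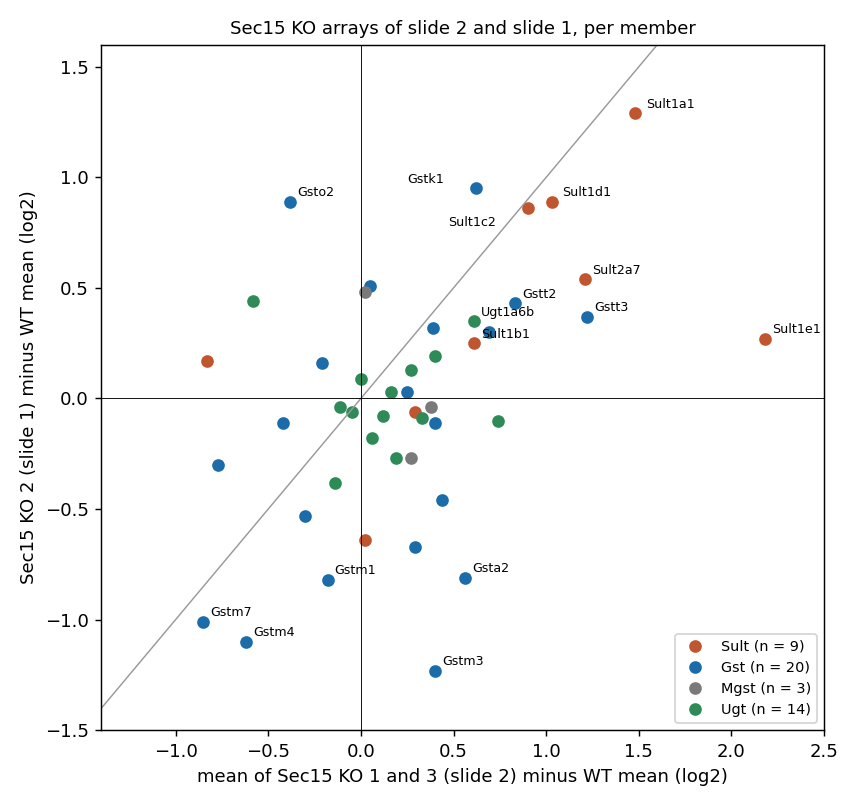
Each point is 1 tested member, with the mean of KO replicates 1 and 3 (slide 2) minus the WT mean on the horizontal axis and KO replicate 2 (slide 1) minus the WT mean on the vertical axis, both in log2; the grey line marks equal values. Sult1a1, Sult1d1, Sult1c2 and Gstm7 lie near the line, while Sult1e1 (2.18 and 0.27) and Gstm3 (0.40 and -1.23) lie far below it.

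Genes that supply the cofactors were counted next, beside 17.4% higher and 12.2% lower over all genes. An unadjusted limma p under 0.05 was held by 10389 of all 22810 genes tested. Of 14 tested genes of sulfate and PAPS supply, 4 were higher in KO (28.6%) and none lower (5 had an unadjusted p under 0.05), with a median of 0.25. These were Slc35b3, a carrier of PAPS (0.57, adjusted p = 0.0324), Bpnt2, a phosphatase of the PAPS by-product (0.53, adjusted p = 0.0381), Sqor, which oxidises sulfide (0.59, adjusted p = 0.0392), and the sulfate carrier Slc26a1 (0.48, adjusted p = 0.0409). Of 11 genes of UDP-glucuronic acid supply, 3 were higher (27.3%) and none lower (4 had an unadjusted p under 0.05), with a median of 0.26. The glucose carrier Slc2a2 stood at 1.12 (adjusted p = 0.00789), Pgm1 at 0.54 (adjusted p = 0.0182) and Pgm2 at 0.96 (adjusted p = 0.0273). Of 19 genes of glutathione synthesis and recycling, 2 were higher (10.5%) and 3 lower (15.8%), shares near those of all genes, with a median of 0.14. Lower were Nat8, which acetylates cysteine conjugates (-0.81, adjusted p = 0.0138), the dipeptidase Dpep1 (-0.67, adjusted p = 0.0154) and the glutathione-cleaving Chac1 (-1.10, adjusted p = 0.0227). Higher were Mat1a (0.91, adjusted p = 0.0269) and Cth (1.11, adjusted p = 0.0435), both of sulfur amino acid metabolism. At the median gene of sulfate and PAPS supply, KO replicate 2 lay -0.11 from the WT mean. KO replicates 1 and 3 lay 0.41 from it, and in 6 of the 14 genes the sides were opposite. The pair was 0.12 and 0.34 for UDP-glucuronic acid supply and -0.08 and 0.28 for glutathione synthesis and recycling.

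Of 22 tested genes of other conjugating enzymes, 4 were higher (18.2%) and 2 lower (9.09%), shares near those of all genes, with a median of 0.07. Nat1, an arylamine acetyltransferase, had -1.96, -1.67 and -1.96 in KO and -0.21, 0.75 and 0.25 in WT. The groups are far apart, and Nat1 fell by 2.13 in log2 terms (SE 0.25, adjusted p = 0.00713). The arsenic methyltransferase As3mt was higher by 0.91 (adjusted p = 0.0102) and the acyl-CoA synthetase Acsm3 by 0.46 (adjusted p = 0.0179).

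Markers of other cells were read beside these results, since in bulk tissue fewer cells of a type and less RNA per cell cannot be told apart. The counts below stand beside 17.4% higher and 12.2% lower over all genes tested. Of 9 tested erythroid markers 6 were higher in KO and none lower (median 2.08), with a log2 summed signal between 6.30 and 6.64 in KO and between 4.46 and 4.71 in WT. Kel, one of the 6, was well above background on no WT array and entered the test through the KO arrays alone. Of 11 hepatocyte markers 4 were higher and none lower (median 0.32), with a summed signal between 11.66 and 11.89 in KO and between 11.47 and 11.65 in WT. Of 9 tested pancreas markers 1 was higher and 6 lower (median -1.01), with a summed signal between 3.62 and 3.67 in KO and between 3.67 and 4.05 in WT. Kupffer cell markers had 3 of 9 higher (summed signal 5.48 to 5.84 in KO and 5.05 to 5.06 in WT) and endothelial markers 4 of 8 (4.94 to 5.34 in KO and 4.64 to 4.69 in WT). Of 6 tested bile duct markers 2 were lower and none higher, and of 4 tested intestine markers none passed (limma; none had an unadjusted p under 0.05). The part of these shifts in the values of the conjugation genes was not tested.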

How the data were processed

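Liver RNA was labelled with Cy3 and read on 6 one-colour Agilent arrays, 3 Sec15 KO and 3 WT, grouped by the genotype label. The deposited intensity values are background-subtracted, detrended processed signals from Feature Extraction 11.0.1.1, with no scaling between arrays, per the file headers. Other deposited columns are per-spot flags for background, saturation and outliers, and raw median intensities.

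Outlier spots (178 to 236 per array) were removed and no spot was saturated. Spots of a probe were averaged as log2 and the array's 75th percentile over 39429 probes was subtracted. Probes with a value on all 6 arrays that were well above background on at least 3 were kept (27024), and the brightest probe stood for each gene (22810 genes, 15544 with a symbol). Between 64.8% and 70.3% of probes were well above background, and the number of arrays limits the precision. Accessions were matched to RefSeq symbols of GRCm38.p6, for names, gene order and promoters; 27234 probes matched 1 symbol and 12195 none.

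KO was compared with WT in limma 3.58.1 (R 4.3.3) over all genes, with Benjamini-Hochberg adjustment at 0.05. The code was tested on simulated data. Members and gene lists were chosen with earlier results of these data known. Named in full were the called members with the largest changes in each family, those nearest to no change, and up to 4 called genes per other list. For glutathione synthesis and recycling, all called genes were named instead. Further members are named to account for all 46, and the second Gstm1, Gstm3, Gstp1, Gstp2 and Mgst3 probes were chosen after their values were seen. Replicate numbers were not taken as pairs. Alternatives were other normalisations, normexp on the deposited raw median intensities, filters, variance models, array weights (gene by gene), probe summaries, blocks for slide and replicate number, WT replicates 1 and 2 averaged (their deposited names share a number) and each replicate left out. The arrays of slide 1 alone were added after seeing the data.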

Additional observations from a re-analysis of the deposited data

How the results depend on the processing

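The counts of conjugation genes higher and lower in KO (8 and 1) depended on the processing. After cyclic loess they were 5 and 5, with array weights 20 and 8 (weights from 0.175 for KO replicate 2 to 11.4 for WT replicate 3), and with the slide as a block 4 higher. The lower count was 3 after quantile normalisation, 6 after normexp, 3 with a filter on all 6 arrays, 3 with no filter, 4 with a trended robust variance, 2 with the mean of a gene's probes, 4 with every probe as a feature and 2 with the replicate number as a block (deviations of same-numbered KO and WT samples correlated at 0.11, 0.11 and 0.02, so the numbers were not taken as pairing the samples). On slide 1 alone, where limma takes the spread from WT arrays only, both were 0 (8 higher and 7 lower at an unadjusted p under 0.05). Leaving out each replicate gave 2 to 12 higher and 0 to 3 lower; the 0, without WT replicate 3, had 3 lower at an unadjusted p under 0.05.

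The Sult median (0.89) was 0.58 after normexp, 0.42 over all Sult genes with no filter and 0.27 with the slide as a block, which equals slide 1 alone. The Gst median (0.07) was -0.13 after cyclic loess and -0.11 with the slide as a block. The Ugt median (0.05) was -0.16 after quantile normalisation, -0.20 after cyclic loess, -0.14 after normexp, 0.16 with median centring and -0.05 with the slide as a block. Median centring moved the median of all genes to 0.18, against 0.06. Leaving out each replicate gave medians of 0.77 to 0.94 for Sult, -0.07 to 0.27 for Gst, 0.03 to 0.14 for Ugt and 0.08 to 0.27 for Mgst. The counts of all genes higher in KO and all genes lower in KO (3959 and 2788) were 9073 and 7362 with array weights, 1158 and 1067 with the slide as a block, and 341 and 276 without WT replicate 3. The same all-gene counts were 3134 and 2540 after quantile normalisation, 2464 and 2852 after cyclic loess, and 3411 and 2650 after normexp. The scarcity of lower members beside all genes in the main fit (1 of 46) was not seen after cyclic loess (5 of 46). The 9 called members kept their direction in all 20 settings. The cause of these shifts was not tested.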

Other observations

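Gene groups around conjugation were also read. Of 33 tested regulators of conjugation genes 10 were higher in KO and none lower (18 had an unadjusted p under 0.05 in limma), with a median log2 fold change of 0.29. One of the 10, Cux2, a repressor found in female mouse liver, was well above background on 3 KO arrays and 0 WT arrays, so it entered the test through the KO arrays alone. Keap1, the inhibitor of Nrf2, had 1.63, 1.41 and 1.64 in KO and 0.84, 0.84 and 0.83 in WT (log2 fold change 0.73, adjusted p = 0.00960). Cebpb stood at 0.69 (adjusted p = 0.00905), and Arnt, the partner of the Ah receptor, at 0.71 (adjusted p = 0.0143). All-gene shares were 17.4% higher and 12.2% lower, and 10389 of 22810 genes had an unadjusted p under 0.05 in limma.

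Of 11 tested export transporters 3 were higher (27.3%) and 1 lower (9.09%), beside 17.4% and 12.2% of all genes, with a median of 0.07. Abcc3, which exports glucuronides to blood, had 4.39, 4.22 and 4.40 in KO and 3.85, 3.59 and 3.71 in WT (0.62, adjusted p = 0.0158). Abcb4 stood at 0.60 (adjusted p = 0.0140) and Abcc4 at 0.67 (adjusted p = 0.0266), while Abcc5 fell by 1.27 (adjusted p = 0.0103). Of 18 tested deconjugating enzymes and related hydrolases 2 were higher (Arsa, 0.64, and Ces1c, 0.55) and 1 lower (Ces2c, -0.40), with a median of 0.00. These shares, 11.1% higher and 5.56% lower, lie below those of all genes.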
